A study of Mus musculus with 9 samples.

Results

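Shc4, an adaptor protein of receptor tyrosine kinases, and Dapl1, a small protein related to death-associated protein, are 2 of the 2462 genes listed for the caput epididymis, the first stretch of the duct in which sperm mature. They were picked by gene symbol because earlier results of the same data showed both to be almost absent in both mouse models of the study. The falls against the wild type are therefore described without a test. RNA was sequenced in 9 libraries from mice aged 14 weeks. The WT group (3 libraries) had the wild-type genotype and no treatment. The EDL group (3 libraries) had the same genotype and had undergone ligation of the efferent ducts, the tubes that carry fluid and sperm out of the testis. The W/Wv group (3 libraries) had no treatment and carried mutant alleles of Kit, which leave the testis almost without germ cells and also affect other Kit-dependent cells. The labels name no strain, no time since ligation and no sham operation. Nor do they say whether each library is from an animal of its own, so SDs and p-values measure the spread between libraries, which may be technical.

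Proteins of the Shc family bind phosphorylated tyrosines of activated receptors, become phosphorylated themselves and recruit Grb2, which leads to Ras and the ERK kinases. Shc4, also called RaLP, is known from neurons, from muscle, where it binds the receptor MuSK, and from human melanoma. In the proximal caput, ERK activity of the principal cells depends on factors that arrive in the lumen from the testis, among them NELL2 of germ cells, which acts through the receptor tyrosine kinase ROS1. Dapl1 was first described in differentiating epithelia, under the name EEDA, and in the retinal pigment epithelium of the mouse it restrains proliferation. Its relative Dap is a substrate of mTOR and an inhibitor of autophagy.

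Both genes lie on chromosome 2, with 66.1 Mb between them. Shc4 occupies chromosome 2, 125627447 to 125724148, on the minus strand of mm10 (GENCODE M21), and its full-length coding transcript has 12 exons and 4059 exonic bases. A pair of shorter coding transcripts of 9 exons start inside the gene. The exons that open them lie opposite Eid1, a single-exon gene on the plus strand, and share 397 and 462 bases with it, whereas the full-length transcript shares 0. The strand setting used in counting is unknown, so reads of Eid1 and reads of the short Shc4 transcripts cannot be told apart, and Eid1 is not analysed here. Dapl1 occupies chromosome 2, 59484653 to 59505020, on the plus strand, and its coding transcript has 4 exons and 573 exonic bases.

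**Figure D1:**
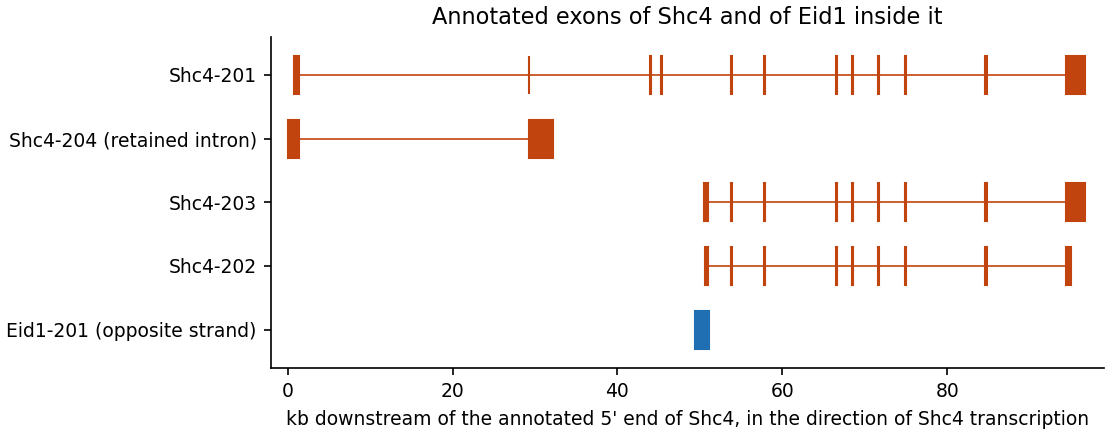
Annotated exons (boxes) and introns (lines) of the Shc4 transcripts and of Eid1, against the distance in kb from the annotated 5′ end of Shc4. The full-length transcript Shc4-201 has no exon in common with Eid1, while the first exons of Shc4-203 and Shc4-202 lie opposite it.

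Since both genes were high in WT and nearly absent in the models, the 250 bases before their RefSeq start sites (GRCm38.p6, the assembly that mm10 names) are shown, 5′ to 3′ on the strand of the gene, with matches to the motifs searched in capitals. The Shc4 window is chr2:125724149-125724398 on the minus strand, upstream of the outermost RefSeq start, where of the annotated Shc4 transcripts only the retained-intron Shc4-204 begins. The full-length coding transcript starts further in, at 125723387, so distances for Shc4 are not from its start. The Dapl1 window is chr2:59484403-59484652 on the plus strand.
Shc4: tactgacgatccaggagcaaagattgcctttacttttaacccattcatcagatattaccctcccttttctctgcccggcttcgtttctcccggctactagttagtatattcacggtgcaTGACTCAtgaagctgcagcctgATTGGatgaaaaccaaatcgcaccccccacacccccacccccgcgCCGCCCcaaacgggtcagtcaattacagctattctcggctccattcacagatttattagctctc
Dapl1: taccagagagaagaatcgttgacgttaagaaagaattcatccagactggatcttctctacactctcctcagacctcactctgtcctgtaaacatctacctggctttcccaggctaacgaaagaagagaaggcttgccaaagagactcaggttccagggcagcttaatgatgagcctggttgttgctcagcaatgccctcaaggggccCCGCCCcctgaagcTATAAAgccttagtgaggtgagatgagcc

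The search covered both strands. Each window held 1 GC box (GGGCGG, here on the opposite strand as CCGCCC), which 32.7% of 32851 mouse promoter windows of the same length hold. The Dapl1 window alone held a TATA box (TATAAA), 29 to 24 bases before the start site, found in 12.4% of windows. The Shc4 window alone held an AP-1 site (TGANTCA) from 131 to 125 bases before the start, found in 6.75% of windows, and a CCAAT box (CCAAT, on the opposite strand), found in 33.8%. Neither window held the letters of the PEA3 site (AGGAAG, 29.5% of windows), the ETS site (CCGGAAG, 6.91%), the androgen response half-site (AGAACA, 16.1%) or the CRE (TGACGTCA, 1.55%). No motif overlapped another. The GC content was 50% in both windows, against a median of 52.4%, and the CpG count was 11 for Shc4 and 4 for Dapl1, against a median of 6. These matches describe the letters of the windows and say nothing on which factor binds there.

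Values are the authors' normalized FPKM, which corrects for gene length, and the authors' normalized counts, from which whole reads were recovered. The 9 libraries held 3536246 to 4793224 reads in the table, so that counting error is small for the WT values of both genes and large for those of the models. The libraries carried markers of principal cells, the main epithelial cell of the duct, of which 6 of 13 were listed. The epithelial keratin gene Krt8 was at 207 ± 3.15 FPKM in WT, 215 ± 15.2 in EDL and 214 ± 11.4 in W/Wv (SD, n = 3). Gpx5, a secreted glutathione peroxidase, was at 26828 ± 1869 FPKM in WT, 26326 ± 1203 in EDL and 23125 ± 795 in W/Wv. The summed level of the 6 markers ranged from 43644 to 50003 FPKM in the WT libraries, from 35216 to 37249 in EDL and from 30518 to 32354 in W/Wv, and Lcn8 and Crisp1 were among those that fell. Crisp4 fell from 215 ± 33.5 FPKM in WT to 99 ± 6.49 in EDL and 101 ± 10.5 in W/Wv. Lcn5 rose, from 702 ± 791 FPKM in WT to 9752 ± 169 in EDL and 8035 ± 1270 in W/Wv. Its WT libraries ranged widely, from 186 to 1613 FPKM. In EDL 1 of the 6 rose, 3 fell and 2 did not pass (limma, over genes with at least 1 FPKM in 3 libraries, of which 39.4% were higher and 35.9% lower). In W/Wv 1 rose, 4 fell, Gpx5 among them (limma adjusted p = 0.040), and 1 did not pass (35.3% of all genes tested higher and 35% lower). In the short marker lists used here for basal cells, narrow and clear cells, smooth muscle, fibroblasts, macrophages, lymphocytes and endothelium, 0 genes were in the table, so the abundance of these cells was not analysed here.

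Shc4 had 50.5, 44.9 and 41.8 FPKM in WT libraries 1 to 3, which held 4559, 4807 and 3310 of its reads. The WT mean was 45.7 ± 4.43 FPKM (SD, n = 3), rank 225 of the 2462 genes listed. In the EDL libraries Shc4 had 0.187, 0.258 and 0.159 FPKM, and in the W/Wv libraries 0.492, 0.438 and 0.384. Every library of both models thus lay far below every WT library, and the EDL and W/Wv libraries did not overlap each other either.

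Expressed as reads, Shc4 went from 12676 in the WT libraries together to 60 in EDL and 114 in W/Wv. After correction for library depth, EDL retained 0.432% of the WT reads (95% interval 0.329% to 0.556%) and W/Wv retained 0.953% (0.785% to 1.15%), by exact binomial intervals that cover counting error only. In fold terms Shc4 was 232-fold lower in EDL and 105-fold lower in W/Wv. Reads of Eid1 could be among the 60 and 114 reads that remained, in a share that was not tested, and these folds are those of the reads assigned to Shc4. On the log2(FPKM + 1) scale, which understates changes of genes near 0, the fall was -5.28 (SE 0.08) in EDL and -5.02 (SE 0.08) in W/Wv. With a pseudocount of 0.1 in place of 1 these values became -7.26 and -6.41.

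Dapl1 was higher than Shc4 per unit of length in WT, at 124, 95.4 and 109 FPKM in libraries 1 to 3. Its WT mean of 109 ± 14.2 FPKM placed it at rank 95 of the genes listed. In the EDL libraries it had 0.116, 0.279 and 0.350 FPKM, which correspond to 1, 2 and 3 reads. In W/Wv library 3 it had 0.141 FPKM, a single read, and it was listed at 0 in W/Wv libraries 1 and 2. Each library of the models lay far below the WT range, and at such depths the values of the models amount to a handful of reads in all.

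Dapl1 reads fell from 2413 in WT to 6 in EDL and 1 in W/Wv. EDL retained 0.227% of the WT reads (95% interval 0.0832% to 0.494%) and W/Wv retained 0.0439% (0.00111% to 0.245%). The level in EDL was 441-fold lower than in WT, with an interval from 202-fold to 1202-fold. For W/Wv the ratio rests on a single read. The log2(FPKM + 1) change was -6.46 (SE 0.11) in EDL and -6.72 (SE 0.11) in W/Wv, against -8.35 and -9.67 with a pseudocount of 0.1.

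**Figure D2:**
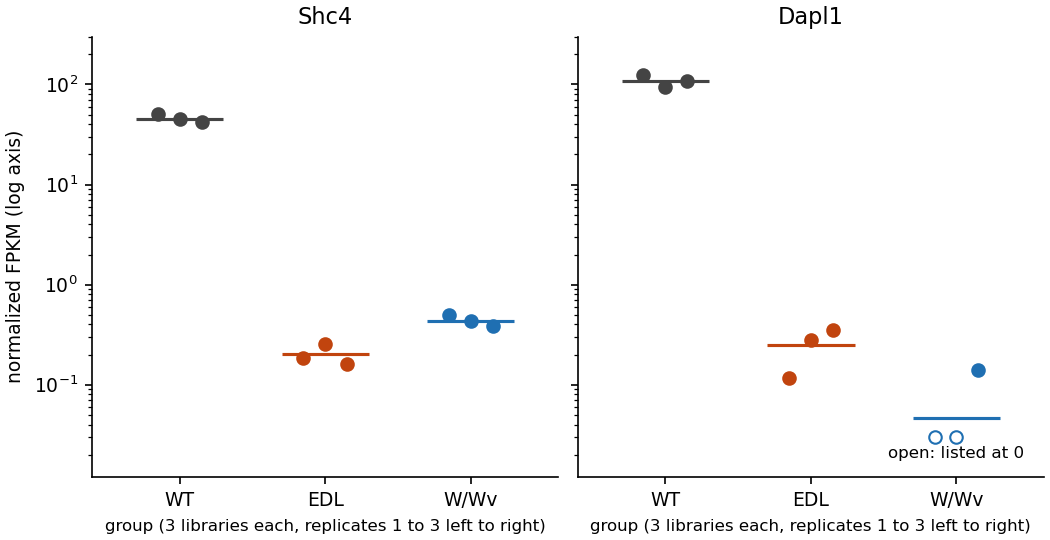
Normalized FPKM of Shc4 and Dapl1 in each library, on a log axis, with points for libraries, bars for group means and open points for libraries listed at 0 (drawn at an arbitrary low position). The WT libraries lie at 41.8 FPKM or more and the libraries of both models at 0.492 FPKM or less.

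For scale, limma with Benjamini-Hochberg adjustment called 39.4% of the 2013 tested genes higher and 35.9% lower in EDL than in WT, and 35.3% higher and 35% lower in W/Wv. In 37.6% of genes every EDL library lay below every WT library, and in 36.3% every W/Wv library did. The direction of the members follows from how they were picked. The spread between WT libraries was 9.69% of the mean for Shc4 and 13% for Dapl1, against a median of 8.03% over the genes tested. WT library 1 was the highest for both genes, WT library 3 the lowest for Shc4 and WT library 2 the lowest for Dapl1. Leaving out any single library moved the 4 log2 changes against WT by less than the residual SD of the gene.

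The order of the members depends on how length enters. Shc4 had 5.2 times the WT normalized count of Dapl1, and Dapl1 had 2.39 times the WT FPKM of Shc4. A normalized count was worth 0.145 FPKM for Dapl1 and 0.0116 FPKM for Shc4, a ratio of 12.4, whereas their coding transcripts differ 7.08-fold in length. Divided by exonic bases instead, the WT level of Dapl1 was 1.36 times that of Shc4. The transcript models behind the FPKM are unknown.

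The models were then compared with each other, a contrast on which the members had not been picked, although both were known to be low in each. Shc4 was higher in W/Wv than in EDL in every library. The ratio of its reads, corrected for depth, was 2.21 (95% interval 1.6 to 3.07 from counting error), with the same limit on reads that Eid1 may share. On the log2(FPKM + 1) scale the difference was 0.26 (SE 0.08), which missed the threshold of 0.05 by limma (adjusted p = 0.059). It passed by edgeR on the recovered reads, a difference of 1.16 on the log2 scale (quasi-likelihood test, adjusted p = 0.0017). By limma it passed without WT library 1 (adjusted p = 0.041) or WT library 3 (adjusted p = 0.042), which lie outside this contrast. It did not pass by limma without WT library 2 (adjusted p = 0.078). Nor did it pass without any single EDL or W/Wv library (limma adjusted p from 0.08 to 0.17). Of the 2013 genes tested, 14% differed between the models by limma, 6.95% being higher in W/Wv and 7% lower, 16.7% differed by edgeR, and 19% had W/Wv libraries that all lay above those of EDL. Over all alternatives the adjusted p of Shc4 ranged from 5.3e-05 to 0.5. The pseudocount of 1 exceeds the FPKM of Shc4 in each of these 6 libraries. Both Shc4 and Dapl1 passed the filter of 1 FPKM in 3 libraries only through the WT libraries. The SE of the main limma fit also draws on the spread of the WT libraries.

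Dapl1 pointed the other way, with 6 reads in EDL and 1 in W/Wv. The ratio of W/Wv to EDL was 0.194, with a counting interval from 0.00421 to 1.6 that includes equal levels. The difference of -0.25 on the log2(FPKM + 1) scale (SE 0.11) did not pass by limma (adjusted p = 0.15) or by edgeR (adjusted p = 0.22), but did with a pseudocount of 0.1 (adjusted p = 0.043). Whether Dapl1 differs between the models thus depends on the scale, and the values rest on these few reads.

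**Figure D3:**
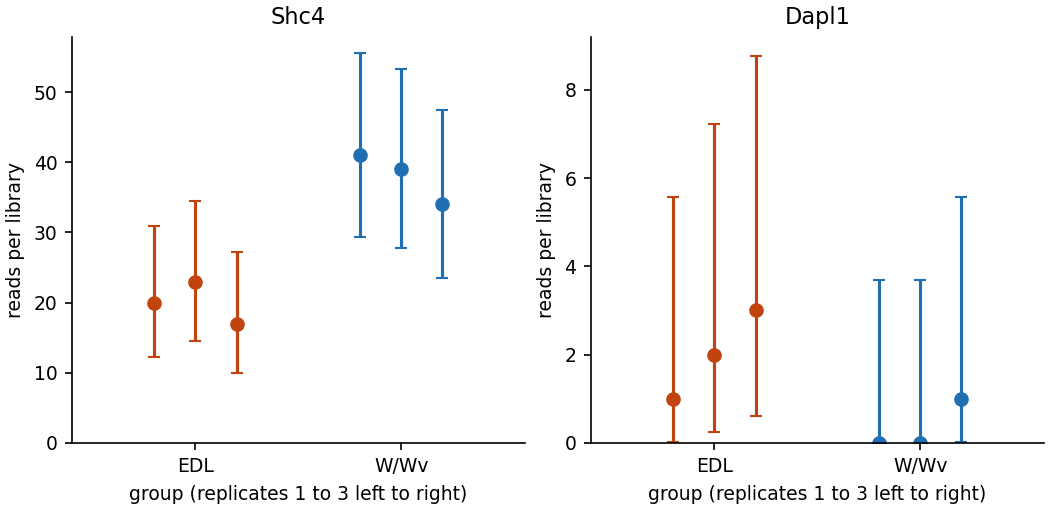
Reads of Shc4 and Dapl1 left in each EDL and W/Wv library, as counted and before correction for depth, with exact Poisson 95% intervals. Shc4 has 17 to 23 reads in the EDL libraries and 34 to 41 in the W/Wv libraries, and Dapl1 has 0 to 3 in all.

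Losses of this depth were rare among the genes listed. Of 951 genes with a mean WT level of 10 FPKM or more, 11 had means under 1% of WT in both EDL and W/Wv, a set that Shc4 and Dapl1 belong to. Shc4 lies close to that limit in W/Wv, at 0.957% of its WT FPKM, and its counting interval crosses it. In EDL, 10 of the 951 genes kept a smaller share of their WT FPKM than Shc4 and 8 a smaller share than Dapl1. In W/Wv these numbers were 13 and 7.

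The other 9 genes span a wide range of WT levels. Lcn8, a lipocalin, had 17981 ± 2689 FPKM in WT (SD, n = 3), followed by the transcript 9230104L09Rik at 9611 ± 1152, the cystatin-related Cst8 at 2557 ± 335 and Crisp1, which encodes a sperm-binding secreted protein, at 1498 ± 164. Dapl1 and Shc4 came next. Below them, 9230102K24Rik had 31.3 ± 3.75 FPKM, Ntsr1, a receptor for neurotensin, 28.2 ± 4.4, and 9230117E06Rik 26.9 ± 0.731, and all 3 were listed at 0 in each library of both models. The protamine genes Prm2 and Prm1, which package sperm DNA, had 14.3 ± 1.28 and 10.1 ± 1.74 FPKM. Crisp1, like Shc4, had a higher mean in W/Wv than in EDL, at 7.68 ± 2.67 against 1.78 ± 0.127 FPKM.

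**Figure D4:**
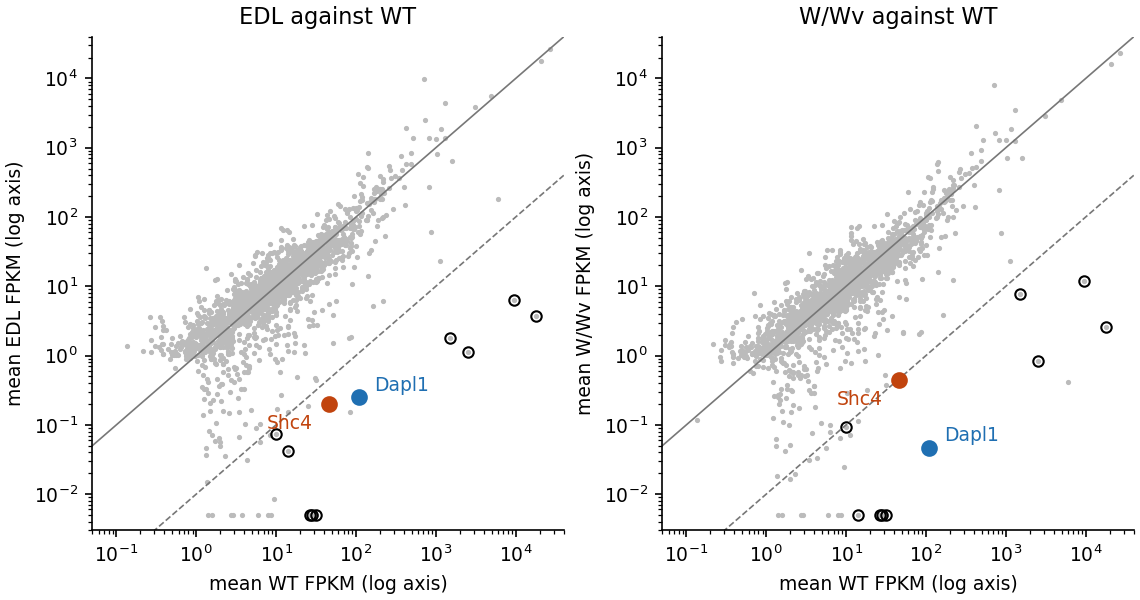
Mean FPKM of the 2013 genes tested in EDL (left) and W/Wv (right) against their mean WT FPKM, on log axes, with a solid line of equal levels and a dashed line at 1% of WT. Shc4 and Dapl1 are filled, the other 9 genes under 1% in both models are circled, and genes listed at 0 are drawn at the bottom. Shc4 lies just under the dashed line in W/Wv.

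The genes most like each member were ranked by Pearson's r of log2(FPKM + 1) over the 9 libraries, as a description. The points share the groups and the libraries, so high values are common: 135 of 2012 other genes reached 0.99 with Shc4 and 117 with Dapl1. Shc4 and Dapl1 themselves had an r of 0.996, and Dapl1 was at rank 55 among the genes most like Shc4. The 5 genes closest to Shc4 were Pcsk5, a proprotein convertase, Hjurp, a chaperone of centromeric histone, P4ha2, a prolyl hydroxylase of collagen, Ovch2, a secreted protease, and Aldh3a2, a fatty aldehyde dehydrogenase. Their r ran from 0.9989 to 0.9995. All 5 kept a larger share of their WT level than Shc4 did. Pcsk5 stood at 56 ± 5.09 FPKM in WT, 6.12 ± 0.18 in EDL and 6.55 ± 0.299 in W/Wv, and Aldh3a2 at 86.4 ± 3.78, 42 ± 0.528 and 43.6 ± 0.494. The 5 closest to Dapl1, with r from 0.9990 to 0.9992, were Dmrta1, a DM-domain transcription factor, Lcn8, Cst8, Prm2 and 9230102K24Rik. Dmrta1 stood at 5.63 ± 0.519 FPKM in WT, 0.0914 ± 0.0145 in EDL and 0.0459 ± 0.0165 in W/Wv.

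Of the 4 nearest listed genes around Shc4, 2 fell in both models and the other 2 did not pass the test in either, where 35.9% of all genes tested fell in EDL and 35% in W/Wv. On the side of lower coordinates Shc4 has B2m, the light chain of class I histocompatibility molecules, 3474357 bases away, at 1289 ± 78.9 FPKM in WT, 1390 ± 90.2 in EDL and 1268 ± 39.1 in W/Wv. Beyond it lies Frmd5, a FERM-domain protein, which fell from 3.41 ± 0.373 FPKM in WT to 0.0662 ± 0.0211 in EDL and 0.0309 ± 0.00718 in W/Wv (limma adjusted p = 1.5e-09 and 1.3e-09). Frmd5 passed the filter only through the WT libraries, so its test could show only a fall. On the other side, Ciao1, of iron-sulfur protein assembly, fell from 16.2 ± 0.603 to 10.8 ± 0.226 and 12.1 ± 0.7 FPKM. Stard7, a lipid transfer protein, stood at 22.9 ± 1.09, 23.4 ± 0.593 and 23.9 ± 1.1 FPKM.

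Around Dapl1, all 3 of the nearest listed genes that were tested rose in both models, as did 39.4% of all genes tested in EDL and 35.3% in W/Wv, so the count says little about the location. The peptidase gene Dpp4, 2825053 bases away, rose from 14.3 ± 3.13 FPKM in WT to 37 ± 1.67 in EDL and 41.4 ± 2.02 in W/Wv (limma adjusted p = 6.2e-06 and 2.8e-06). Gca, which encodes the calcium-binding protein grancalcin, rose from 7.22 ± 0.704 to 13 ± 0.347 and 15.8 ± 1.48 FPKM. Nr4a2, an orphan nuclear receptor, rose on the other side at low levels, from 0.557 ± 0.138 to 1 ± 0.0261 and 0.979 ± 0.108 FPKM. Nr4a2 passed the filter only through libraries of the models, so its rise was largely set by the filter. Kcnj3, a potassium channel, was too low to be tested.

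Few partners of Shc4 were among the genes listed. Of 140 adaptors, receptor tyrosine kinases, Ras and ERK cascade members and ERK target genes, 14 were listed and 10 passed the filter on low values. No other Shc or death-associated protein gene is analysed here, nor are Grb2, Ros1 and the ERK genes. In EDL 3 of the 10 rose, 4 fell and 3 did not pass (limma, adjusted over all genes tested), where 75.3% of all genes tested changed. In W/Wv 4 rose, 2 fell and 4 did not pass, where 70.3% of all genes tested changed. The median change of the 10 was -0.13 in EDL and 0.12 in W/Wv on the log2(FPKM + 1) scale, against 0.05 and 0.02 over all genes tested.

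None of these genes was lost to the extent of Shc4. Rps6ka2, a ribosomal S6 kinase that ERK activates, fell from 10.2 ± 1.17 FPKM in WT to 2.33 ± 0.145 in EDL and 2.4 ± 0.233 in W/Wv. Its relative Rps6ka1 rose, from 6.15 ± 0.211 to 7.86 ± 0.467 and 8.1 ± 0.497 FPKM. Map2k1, the kinase that activates ERK, fell from 29.4 ± 1.2 to 23.5 ± 0.614 and 24.3 ± 0.363 FPKM, and the kinase Src rose from 17.6 ± 0.673 to 20.2 ± 0.292 and 19.9 ± 0.961. Of the ephrin receptors, Ephb3 rose from 2.07 ± 0.716 to 6.47 ± 0.19 and 7.02 ± 0.559 FPKM.

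Of the 10 signalling genes tested, Fos and Ephb2 differed between the models, both being higher in W/Wv. Of all genes tested, 14% differed and 6.95% were higher in W/Wv, and so small a count says little about the list. The immediate early gene Fos had 6.12 ± 2.98 FPKM in WT, 0.859 ± 0.117 in EDL and 5.18 ± 1.52 in W/Wv (W/Wv against EDL, limma adjusted p = 0.0045). Ephb2 had 2.51 ± 0.049, 1.9 ± 0.2 and 3.04 ± 0.0512 FPKM (limma adjusted p = 0.0015). With a stricter filter, which requires 5 FPKM in 3 libraries, Ephb2 was not tested and 1 of these calls was left. The receptor gene Musk, whose product binds Shc4 in muscle, was at 0.0656 ± 0.0243 FPKM in WT and below 0.34 in all libraries, too low to be tested.

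**Figure D5:**
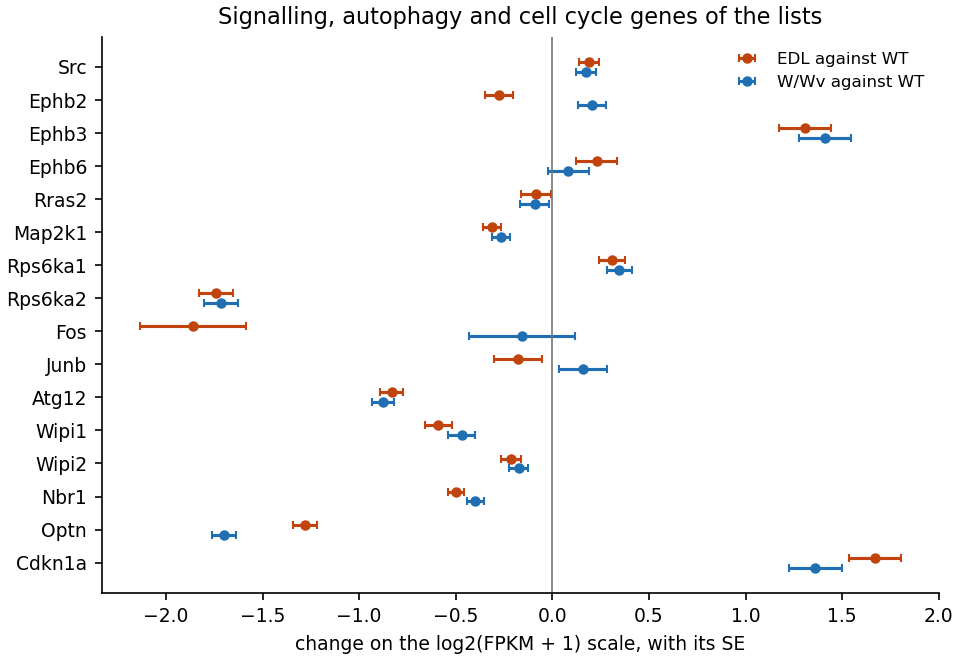
Change against WT on the log2(FPKM + 1) scale, with its SE, of the signalling genes, the autophagy genes and Cdkn1a that were tested. Rps6ka2 and Optn lie at -1.28 or below in both models, Ephb3 and Cdkn1a above 1.3, and Fos at -1.86 in EDL and -0.16 in W/Wv.

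Of 44 autophagy and mTOR genes, the pathway in which the Dapl1 relative Dap acts, 5 were listed and tested, and all 5 fell in both models, where 35.9% of all genes tested fell in EDL and 35% in W/Wv. Optn, an autophagy receptor, fell from 23.7 ± 1.62 FPKM in WT to 9.16 ± 0.459 in EDL and 6.6 ± 0.279 in W/Wv, and was lower in W/Wv than in EDL (limma adjusted p = 0.0014). Atg12, a conjugated autophagy protein, fell from 38.9 ± 2.66 to 21.4 ± 1.12 and 20.7 ± 0.494 FPKM. Wipi1 fell from 12.7 ± 0.496 to 8.12 ± 0.275 and 8.95 ± 0.897, and Nbr1 from 43.6 ± 1.19 to 30.6 ± 0.475 and 32.8 ± 0.926. The median change of the 5 was -0.59 in EDL and -0.47 in W/Wv, against 0.05 and 0.02 over all genes tested. Cdkn1a, a cell cycle inhibitor and the 1 gene listed out of 6 in a list on Dapl1 and proliferation, rose to 31.2 ± 0.988 FPKM in EDL and 25 ± 0.312 in W/Wv, from 9.31 ± 2.52 in WT.

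The falls of Shc4 and Dapl1 went with those of genes tied to signals from the testis, a list that holds the ligand gene Nell2 and genes known to need testicular factors and was chosen with results of these data known. Of its 16 genes 7 were listed and 6 tested, and all 6 fell in both models. Of all genes tested, 35.9% fell in EDL and 35% in W/Wv, but the count of 6 was largely set by the choice of the list. The median change of the 6 was -7.33 in EDL and -8.95 in W/Wv. The summed level of the 7 genes was 26530 to 33527 FPKM in the WT libraries, 195 to 234 in EDL and 33.8 to 40.4 in W/Wv. Ovch2, whose protease acts on sperm surface proteins, had 1143 ± 119 FPKM in WT, 22.8 ± 0.394 in EDL and 22.9 ± 0.857 in W/Wv. The cystatin-related Cst12, named after its values were seen, made up most of the EDL sum, with 6007 ± 771 FPKM in WT, 183 ± 19 in EDL and 0.415 ± 0.36 in W/Wv (W/Wv against EDL, limma adjusted p = 1.3e-07). Nell2, the germ cell ligand, was at 0.101 ± 0.05 FPKM in WT and too low to be tested.

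Markers of sperm and germ cells were also lower in both models, by differing amounts. Of 18 markers, 12 were listed and 8 tested, and all 8 fell in both models, beside 35.9% of all genes tested in EDL and 35% in W/Wv. The median change of the 8 was -2.98 in both models. Of these, Prm1, Prm2, Tnp1, Tnp2, Smcp and Ldhc passed the filter only through the WT libraries and so could only fall. The count of 8 was thus largely set by the filter. The summed level of the 12 ranged from 141 to 148 FPKM in the WT libraries, from 14.8 to 16.1 in EDL and from 14.2 to 15.9 in W/Wv. Dkkl1 made up most of the WT sum, at 81.9 ± 5.29 FPKM in WT, 1.79 ± 0.278 in EDL and 2.04 ± 0.383 in W/Wv. Most of what remained was Odf2, which fell little, from 16.5 ± 0.407 FPKM in WT to 13.4 ± 0.309 in EDL and 12.6 ± 0.704 in W/Wv. The spermatid genes Tnp2, Smcp, Akap4 and Pgk2 were listed at 0 in every library of both models. In WT they had 6 ± 0.492, 7.94 ± 0.898, 0.56 ± 0.0162 and 0.657 ± 0.175 FPKM, so Akap4 and Pgk2 were too low to be tested. Tssk2 and Ddx4, also too low, had 0.22 ± 0.0632 and 0.162 ± 0.0309 FPKM in WT. They kept means of 0.112 and 0.0749 FPKM in EDL and 0.0595 and 0.0752 in W/Wv. Whether RNA of luminal sperm had a part in the WT levels of Shc4 and Dapl1 was not tested. In tissue of this kind, fewer cells of a type and less RNA per cell cannot be told apart.

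Few markers of nerve and pigment cells were listed. Uchl1, the 1 listed of 8 markers of Schwann cells and nerve, fell from 45.6 ± 2.72 FPKM in WT to 5.57 ± 0.041 in EDL and 7.08 ± 0.249 in W/Wv, and its part in the Shc4 result was not tested. Tyr, the 1 listed of 7 melanocyte markers and the gene of tyrosinase, was at 0.385 ± 0.0454, 0.324 ± 0.137 and 0.293 ± 0.138 FPKM, at or near 0 in every group.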

How the data were processed

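Stranded mRNA libraries were prepared per the labels' protocols, and the series' design text names a NovaSeq6000. The submitters' processing notes list TopHat2 2.1.1, Cufflinks 2.2.1 and mm10 without their roles. The authors deposited a normalized FPKM and a normalized count for each of 2462 genes, per the file headers. No source used here states the annotation, the strand setting or how the genes were chosen. The normalized count is a signal, a read count that the authors divided by 1 factor per library (0.922 to 1.25). Dividing by the smallest step gave whole reads for 98.8% to 99% of values, within 0.1 of a read. Libraries within a group differed by more than sampling noise (chi-square per gene 3.14 to 24.9).

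limma 3.58.1 (R 4.3.3; trended, robust) was fitted to log2(FPKM + 1) over all 9 libraries, for 2013 genes with at least 1 FPKM in 3 libraries, adjusted by Benjamini-Hochberg with a threshold of 0.05. On the recovered reads, edgeR 4.0.16 called 1523, 1423 and 337 genes and DESeq2 1.42.0 called 1485, 1384 and 324 (EDL against WT, W/Wv against WT, W/Wv against EDL). The scripts were tested on simulated data. Intervals are 95% exact ones.

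The members and the gene lists were chosen with earlier results of these data known. Named were the members, their relatives, up to 4 listed genes per list by size of change, the 5 most like genes, those under 1% of WT and the nearest listed neighbours. Musk, Nell2, Tyr, Cst12, Odf2, Krt8, Gpx5, Tnp1, Ldhc, Tssk2 and Ddx4, and the sperm genes listed at 0, were named outside this rule, after their values were seen. Of 2462 genes, 2454 matched RefSeq positions (GRCm38.p6). Plots used matplotlib 3.10.9.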

Additional observations from a re-analysis of the deposited data

How the results depend on the processing

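Shc4 and Dapl1 stayed lower in both models under every alternative. The size followed the scale. For Shc4 against WT the log2 changes in EDL and W/Wv were -7.26 and -6.41 with a pseudocount of 0.1, -3.28 and -3.22 with 5, -5.08 and -4.82 after quantile scaling, -7.88 and -6.72 by edgeR and -7.89 and -6.73 by DESeq2. For Dapl1, in the same order, they were -8.35 and -9.67, -4.44 and -4.50, -6.25 and -6.52, -8.74 and -10.7, and -8.84 and -11.1. Without each library in turn the changes ranged from -5.34 to -5.21 and from -5.08 to -4.95 for Shc4, and from -6.56 to -6.37 and from -6.81 to -6.62 for Dapl1.

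Between W/Wv and EDL, Shc4 passed the threshold at 0.845 with a pseudocount of 0.1, at 0.264 after median-ratio scaling (adjusted p = 0.049), at 0.26 in a fit of only these groups (adjusted p = 0.031) and at 1.16 by edgeR and by DESeq2. Its difference ranged from 0.233 to 0.293 without each library. Among those fits Shc4 passed only without WT library 1 or 3. Dapl1 passed at -1.31 with a pseudocount of 0.1. Without each library its difference ranged from -0.33 to -0.193. The cause was not tested. In the models Dapl1 had 0 to 3 reads a library.

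The 281 genes that differed between the models became 425 in a fit of only these groups and 174 to 385 without each library, with 174 without EDL library 1 or 3, 187 without EDL library 2 and 181 without W/Wv library 1. The 2 signalling genes called there became 1 with the stricter filter.

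Libraries with the same replicate number did not deviate together (correlations of -0.343 to 0.084). With 3 libraries a group this cannot exclude that libraries of the same number were handled together. With the replicate number as a block the changes of Shc4 were -5.28, -5.02 and 0.26 (adjusted p = 0.074), those of Dapl1 -6.46, -6.72 and -0.252, and 219 genes differed between the models.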

Other observations

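Within a library, the level of Dapl1 relative to Shc4 was steady in WT and not in the models. The FPKM of Dapl1 was 2.45, 2.12 and 2.61 times that of Shc4 in WT libraries 1 to 3. In EDL it was 0.622, 1.08 and 2.2 times, and in W/Wv 0, 0 and 0.366 times, values that rest on 0 to 3 Dapl1 reads a library.

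Of the 11 genes with at least 10 FPKM in WT and under 1% of it in both models, 6 lie on chromosome 2, namely Lcn8, 9230104L09Rik, Cst8, Dapl1, Shc4 and Ntsr1. Chromosome 2 holds 8.62% of the 951 genes at that WT level. The location was looked up after the genes were known, and no test was made.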
